A study of Homo sapiens with 6 samples.

Results

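The 10 genes AXIN2, LGR5, NKD1, TCF7, LEF1, SP5, DKK1, NOTUM, ZNRF3 and RNF43 are direct targets and feedback genes of Wnt/β-catenin signaling. They were taken by gene symbol from a table of 23524 genes, in which each was listed once, and all 10 were among the 17222 genes that averaged 0.1 FPKM or more across the 6 libraries and were tested. FPKM is a count of sequenced fragments divided by the length of the transcript and by the size of the library. The libraries came from Hep G2, a human liver tumor cell line, infected either with an empty lentiviral vector (control, n = 3) or with a lentivirus carrying the EFTUD2 gene (EFTUD2, n = 3). Both kinds of cells were stable lines selected in puromycin, and the sources used here do not say whether they were clones or pools, or whether the 3 libraries of a group came from separate cultures, so the p-values measure only the spread between these libraries. EFTUD2 is a GTPase of the spliceosome, and the study sequenced these cells to ask which genes and pathways its overexpression alters.

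In the canonical Wnt pathway, a complex built on AXIN and APC marks β-catenin for destruction until a Wnt ligand binds a Frizzled receptor and its LRP partner. Stabilized β-catenin then enters the nucleus and switches on genes through factors of the TCF/LEF family. Many of these targets dampen the pathway again, and their mRNA is therefore used as a readout of β-catenin activity. Hep G2 cells carry a mutant CTNNB1 gene whose β-catenin escapes destruction, so the pathway is active without added ligand, and in normal liver it is known for setting the gene program around the central vein.

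The β-catenin targets were expressed in both kinds of cells, and the values of most of them overlapped between the groups. In control cells 9 of the 10 genes had a mean between 19.9 and 241.5 FPKM, and only LEF1 was low, at 0.28 FPKM. LGR5 and RNF43 lay lower in every EFTUD2 library, at 0.72 and 0.79 times their control means, NOTUM averaged 1.21 times its control mean, and for DKK1, ZNRF3 and AXIN2 the means of the groups lay within 1 FPKM of each other. With limma, a linear model fitted to all genes tested, 0 of the 10 genes reached an adjusted p below 0.05, as did 0% of all genes. An unadjusted p under 0.05 was found for 2 of the 10, RNF43 and LGR5, both lower, against 12.3% of all genes tested, made up of 7.9% lower and 4.4% higher.

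**Figure D1:**
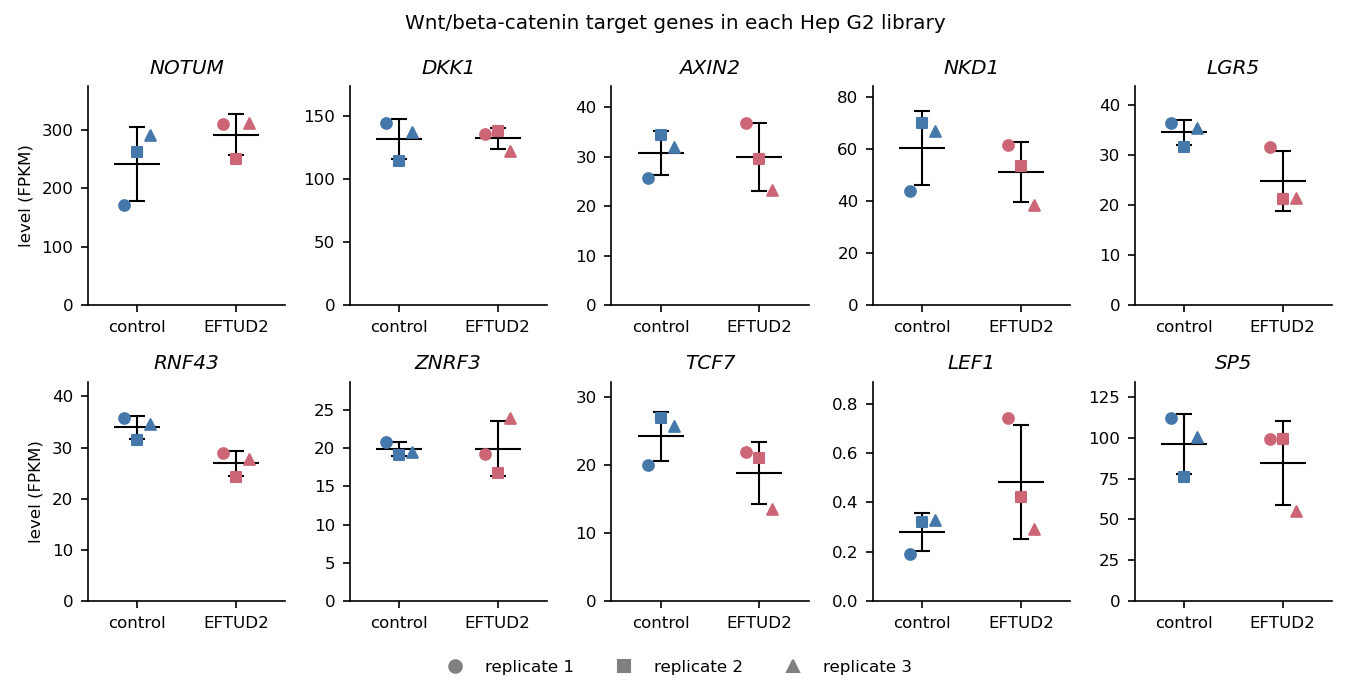
Each panel plots the level of 1 target gene in FPKM (linear axis from 0) for the 3 control and the 3 EFTUD2 libraries, with the replicates as symbols and the mean ± SD as bars. The groups separate for LGR5 and RNF43 and overlap for the other 8 genes.

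The libraries differed in ways that touch these values. The overexpressed gene itself stood at 47.3 ± 6.65 FPKM in control and 106.3 ± 3.30 FPKM in EFTUD2 cells (SD, n = 3 each; log2 fold change 1.16, limma adjusted p = 0.13), higher in every library so labelled. EFTUD2 replicate 3 stood apart, since its log2 values differed from those of the other EFTUD2 libraries with an SD of 0.51 and 0.60 over genes, against 0.21 to 0.36 among controls. All 11 liver tumor markers checked, such as ALB and HNF4A, had a control mean of at least 1 FPKM, with sums of 7260 to 11121 FPKM in control and 9904 to 14859 FPKM in EFTUD2 libraries. Of 9 fibroblast markers, 0 had a control mean of at least 1 FPKM and 2 were higher in every EFTUD2 library. Over all genes tested, 7.92% were higher in this way and 19.4% lower, to be read beside the counts of each list here. Their sum was 0.60 to 1.69 FPKM in the controls and 26.1, 64.5 and 5.22 FPKM in EFTUD2 replicates 1 to 3, where VIM made up most of it, while COL1A2 was listed at 0 throughout. Of 7 genes listed as keratin and squamous markers 3 were higher, namely KRT17, KRT14 at no more than 0.83 FPKM, and TP63 at 0.01 against 0 FPKM. The sums of the 7 were 35.3 to 52.8 FPKM in the controls and 136.2, 259.3 and 40.1 FPKM in the EFTUD2 replicates. They were mostly KRT17, KRT7 and SFN, while KRT5 was listed at 0 and KRT6A at no more than 0.01 FPKM. Of 9 macrophage markers 1 was higher, and their sums of 775.5 to 2281 and 885.4 to 1749 FPKM were mostly LYZ, with TYROBP listed at 0 and PTPRC at no more than 0.02 FPKM. Of 8 endothelial markers 2 were higher and 2 lower, with sums of 16.1 to 17.4 and 5.40 to 10.1 FPKM and KDR at no more than 0.01 FPKM. The part of these differences in the results below was not tested. In bulk RNA, a change in the number of cells that express a gene cannot be told apart from a change in its RNA per cell.

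Positions are those of RefSeq on GRCh38.p14, the assembly also called hg38 in the submitters' processing notes. Among the secreted inhibitors, NOTUM (Entrez gene 147111, chromosome 17 from 81952507 to 81961187), an enzyme that strips the lipid from Wnt ligands, was the most abundant of the 10 genes in both groups. It measured 171.2, 262.1 and 291.4 FPKM across control replicates 1 to 3, against 310.6, 250.8 and 312.4 FPKM across EFTUD2 replicates 1 to 3, the order kept for all genes that follow. Control replicate 1 was lowest and the groups overlapped. The log2 fold change, computed as for all genes on log2(FPKM + 1), was 0.30 (SE, standard error, 0.22, 95% interval -0.22 to 0.81, limma adjusted p = 0.52), and 0.07 without control replicate 1.

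DKK1 (Entrez gene 22943, chromosome 10 from 52314281 to 52317657), which blocks the LRP co-receptors, stood at 144.9, 114.0 and 137.1 FPKM across the controls, against 136.0, 138.4 and 122.7 FPKM with EFTUD2. All 3 EFTUD2 values lay within the range of the controls. The log2 fold change was 0.01 (SE 0.13, 95% interval -0.29 to 0.31, limma adjusted p = 0.98), and its sign turned with the scaling of the libraries (-0.03 with a common sum of FPKM). Of its annotated exonic bases in GENCODE release 29, 9.6% also lie in exons of the antisense gene PRKG1-AS1, and whether the counting used strand is not given in the sources used here.

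Promoters of the target genes were searched for the core of the TCF/LEF recognition motif. Promoter sequences here run from 250 bases before to 50 after a gene's start and come from RefSeq (GRCh38.p14), whose table held 5 of the 10 genes, namely SP5, LEF1, TCF7, DKK1 and RNF43, in 7 entries, since TCF7 and RNF43 had 2 each. The entry of LEF1, both of TCF7 and 1 of RNF43 begin at starts inside the gene as positioned here, not at its outer end. The core was searched as TCAAAG or its reverse complement CTTTGA, that is, on both strands. DKK1 had 2 matches and SP5 had 3, while 0 were found in the windows given for LEF1, TCF7 and RNF43, so the outer starts of LEF1 and TCF7 were not searched. Of all 35116 promoters in the table, 12.9% held at least 1 match, 1.29% at least 2 and 0.0997% at least 3. The longer form, ATCAAAG or CTTTGAT, which contains the core, occurred in the SP5 promoter and in 2.62% of all promoters. Each match is given in a window of 30 bases on the strand of the mRNA, with the core in capitals, so that its spacing and flanks can be compared. They begin 149 and 95 bases before the start in DKK1, and 147, 109 and 83 bases before it in SP5. The DKK1 windows are chr10:52314120-52314149 and chr10:52314174-52314203, and those of SP5 are chr2:170715178-170715207, chr2:170715216-170715245 and chr2:170715242-170715271, all on the plus strand.
DKK1 upstream: gggtgaagagtgTCAAAGgccccccttcat
DKK1 downstream: cccctcccagcgCTTTGAaatcccatcccg
SP5 upstream: agctttgtggatTCAAAGgatttgctttcg
SP5 middle: agagccgctattCTTTGAtgattgggtagc
SP5 downstream: tagcggcaaactTCAAAGccataaatcttc
A match describes the letters only, and binding was not measured in these cells.

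Among the transcription factors, SP5 (Entrez gene 389058, chromosome 2 from 170715337 to 170718078), a zinc finger factor that restrains other Wnt targets, stood at 112.0, 75.9 and 100.8 FPKM across the controls, against 99.6, 99.1 and 54.9 FPKM with EFTUD2. EFTUD2 replicates 1 and 2 lay within the range of the controls, and replicate 3 below it. Its log2 fold change was -0.22 (SE 0.26, limma adjusted p = 0.69) and turned to 0.06 without EFTUD2 replicate 3. Neither of the genes with promoter matches thus had groups that separated.

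TCF7 and LEF1 belong to the family of DNA-binding partners of β-catenin and differed widely in level. TCF7 (Entrez gene 6932, chromosome 5 from 134108218 to 134148210) stood at 20.04, 26.8 and 25.7 FPKM across the controls, against 21.8, 21.0 and 13.5 FPKM with EFTUD2. Only EFTUD2 replicate 3 lay below all controls, and the log2 fold change was -0.37 (SE 0.21, 95% interval -0.86 to 0.13, limma adjusted p = 0.45), and -0.16 without that library. LEF1 (Entrez gene 51176, chromosome 4 from 108047548 to 108168932) stood at 0.19, 0.32 and 0.33 FPKM across the controls, against 0.74, 0.42 and 0.29 FPKM with EFTUD2. EFTUD2 replicates 1 and 2 were above all controls and replicate 3 within their range. The log2 fold change of LEF1 was 0.20 (SE 0.13, 95% interval -0.10 to 0.51, limma adjusted p = 0.47), on a scale that understates changes at so low a level. It was 0.57 and 0.70 with pseudocounts of 0.1 and 0.01 in place of 1, and 0.08 without EFTUD2 replicate 1. Of its annotated exonic bases, 5.2% also lie in exons of the antisense gene LEF1-AS1.

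The balance between these 2 factors could be compared within each library, where a common factor for all genes of a library has no effect. TCF7 was 105.5, 83.8 and 77.8 times as high as LEF1 in control replicates 1 to 3 and 29.5, 49.9 and 46.7 times in EFTUD2 replicates 1 to 3. The ratio was thus lower in each EFTUD2 library than in each control, with a log2 difference of -1.09 (exact permutation test, two-sided p = 0.1, the smallest p that 3 libraries against 3 allow). Values of LEF1 are deposited with 2 decimals, which limits the precision of this ratio.

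The receptor-level feedback genes included the pair that lay lower with EFTUD2. LGR5 (Entrez gene 8549, chromosome 12 from 71439129 to 71586310), a receptor for R-spondins that marks Wnt-driven stem cells, stood at 36.5, 31.7 and 35.4 FPKM across the controls, against 31.7, 21.2 and 21.4 FPKM with EFTUD2. The groups did not overlap, but EFTUD2 replicate 1, at 31.68 FPKM, lay only just under control replicate 2, at 31.69 FPKM. The mean was 34.5 ± 2.53 FPKM in control and 24.8 ± 5.997 FPKM in EFTUD2 cells (SD, n = 3 each). On the log2 scale the fold change was -0.49 (SE 0.17, 95% interval -0.90 to -0.08, limma adjusted p = 0.40; exact permutation test, two-sided p = 0.1).

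RNF43 and ZNRF3 encode related membrane ubiquitin ligases that remove Frizzled receptors from the cell surface, and R-spondins bound to LGR receptors silence them. RNF43 (Entrez gene 54894, chromosome 17 from 58352500 to 58417534) stood at 35.7, 31.5 and 34.6 FPKM across the controls, against 28.9, 24.2 and 27.8 FPKM with EFTUD2. Each EFTUD2 value lay below each control, with means of 33.9 ± 2.19 and 26.9 ± 2.47 FPKM (SD, n = 3 each). This gave a log2 fold change of -0.32 (SE 0.11, 95% interval -0.59 to -0.06, limma adjusted p = 0.40; exact permutation test, two-sided p = 0.1). Of the exonic bases annotated for RNF43 in GENCODE release 29, 57.6% also belong to another annotated gene on the same strand, AC004687.2, so reads could be split between these genes, and 20.3% lie in exons of the antisense gene TSPOAP1-AS1.

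ZNRF3 (Entrez gene 84133, chromosome 22 from 28883572 to 29057488) stood at 20.9, 19.2 and 19.6 FPKM across the controls, against 19.2, 16.8 and 23.9 FPKM with EFTUD2. EFTUD2 replicate 2 was the lowest and replicate 3 the highest of all 6 values. The fitted log2 fold change was -0.01 (SE 0.14, 95% interval -0.35 to 0.34, limma adjusted p = 0.98) and turned to 0.13 with libraries scaled by the median of their ratios. Within each library, ZNRF3 stood at 0.584, 0.608 and 0.565 times RNF43 in the controls and at 0.665, 0.694 and 0.859 times RNF43 in EFTUD2 replicates 1 to 3. Every EFTUD2 library was above every control, with a difference of 0.33 on the log2 scale (exact permutation test, two-sided p = 0.1), which was 0.21 without EFTUD2 replicate 3. Quantile scaling, which is no common factor, was not applied to the ratios. Over these 2 ratios, the only ones compared, the Benjamini-Hochberg adjusted p was 0.1 for both.

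The intracellular inhibitors did not separate the groups. AXIN2 (Entrez gene 8313, chromosome 17 from 65528563 to 65561648), a scaffold of the destruction complex and the most widely used β-catenin target, stood at 25.8, 34.5 and 32.02 FPKM across the controls, against 37.0, 29.5 and 23.3 FPKM with EFTUD2. EFTUD2 replicate 1 was the highest and replicate 3 the lowest of the 6. Between the groups, the log2 fold change was -0.05 (SE 0.19, 95% interval -0.51 to 0.40, limma adjusted p = 0.90), and it turned to 0.08 with the median of ratios scaling and to 0.11 without EFTUD2 replicate 3. For AXIN2, 25.2% of the annotated exonic bases are shared with AC004805.1 on the same strand.

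NKD1 (Entrez gene 85407, chromosome 16 from 50548396 to 50649249), which binds Dishevelled and dampens the signal, stood at 43.9, 70.0 and 66.7 FPKM across the controls, against 61.2, 53.4 and 38.6 FPKM with EFTUD2. Control replicate 1 and EFTUD2 replicate 3 were both low, and the groups overlapped. Its log2 fold change was -0.23 (SE 0.24, 95% interval -0.79 to 0.33, limma adjusted p = 0.64), -0.04 without EFTUD2 replicate 3 and -0.44 without control replicate 1.

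**Figure D2:**
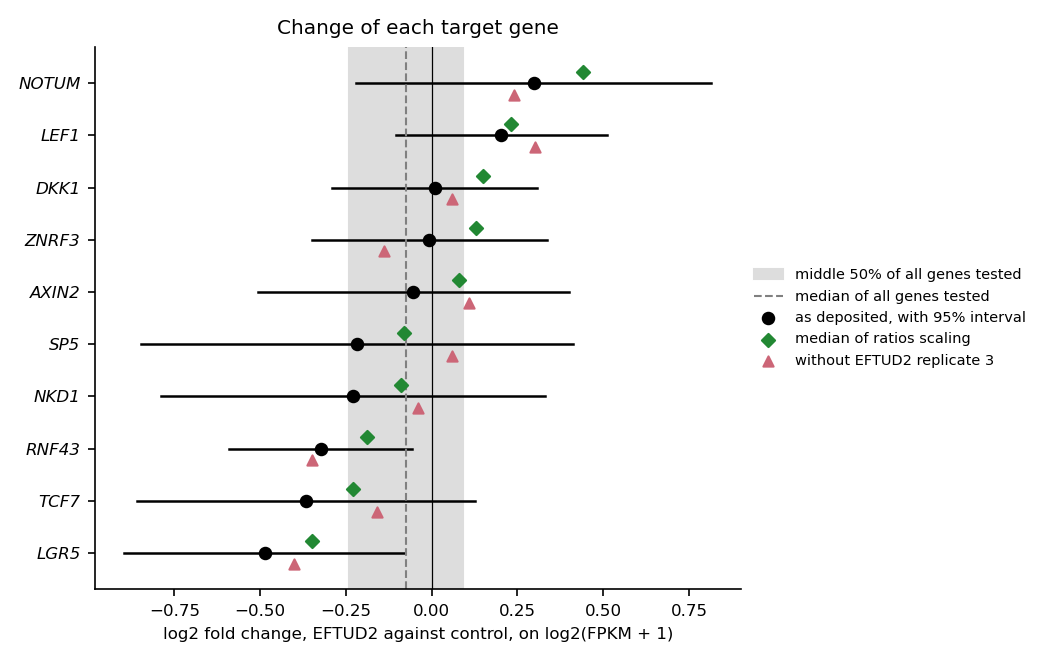
For each target gene the plot gives the log2 fold change of EFTUD2 against control on log2(FPKM + 1) with its 95% interval from limma, beside the value with median of ratios scaling and the value without EFTUD2 replicate 3. The intervals of LGR5 and RNF43 lie below 0, and their 3 values are all negative, while AXIN2 and ZNRF3 each lie on both sides of 0.

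Of the 10 genes, 2 had groups that did not overlap, both lower, against 27.3% of all genes tested, 19.4% lower and 7.92% higher. Among the 6560 genes averaging 10 FPKM or more in the controls, as 9 of the 10 targets have, 26.2% were lower in this way and 5.67% higher. The count of targets was thus close to the share of all genes. The median log2 fold change of the 10 genes was -0.14, with 7 below 0, beside -0.07 over all genes tested, of which 62.7% were below 0 and 37.3% above. Of the genes averaging 10 FPKM or more in the controls, 71.8% were below 0. With median of ratios scaling the medians were 0 for the 10 genes and 0.02 for all genes, and 5 of the 10 were below 0. Under that scaling and under quantile scaling, neither LGR5 nor RNF43 lay apart from the controls, and with a common sum of FPKM only RNF43 did. LGR5 and RNF43 both stayed lower on average under every alternative tried (log2 fold changes from -0.67 to -0.26 for LGR5 and from -0.38 to -0.19 for RNF43). Other targets lay apart under some alternatives. LEF1 was higher with median of ratios scaling and without EFTUD2 replicate 3, beside 13.3% and 14.8% of all genes. NOTUM was higher without EFTUD2 replicate 2, beside 10.5% of all genes. TCF7 and NKD1 were lower without control replicate 1, beside 26.6% of all genes, and SP5 without control replicate 2, beside 23.8%.

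The target genes did not share 1 order over the libraries. In the controls, NOTUM, NKD1, AXIN2, TCF7 and LEF1 were lowest in replicate 1, whereas DKK1, SP5, LGR5, RNF43 and ZNRF3 were lowest in replicate 2, so that the 10 genes formed 2 sets of 5. The same 5 genes that were lowest in control replicate 2 were highest in control replicate 1. In the EFTUD2 libraries, 6 genes were lowest in replicate 3 (DKK1, SP5, NKD1, AXIN2, TCF7 and LEF1) and the other 4 in replicate 2 (NOTUM, LGR5, RNF43 and ZNRF3). Replicate 1 held the highest value of 7 genes. Over the whole table, the upper quartile was 9.46 FPKM in EFTUD2 replicate 3, against 11.21 and 11.49 FPKM in EFTUD2 replicates 1 and 2. The share of all genes lowest or highest in each library was not computed, so these counts are not read as a trait of the targets. The sum over the 10 genes was 611.0, 665.9 and 743.6 FPKM in the controls and 746.7, 654.6 and 638.7 FPKM in the EFTUD2 replicates, with overlapping ranges.

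**Figure D3:**
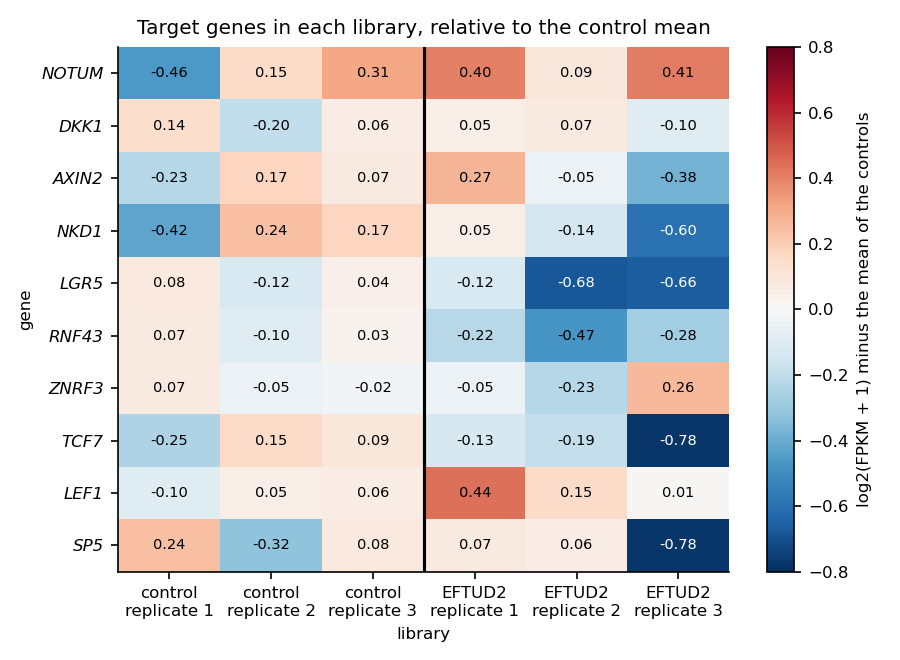
The heat map gives log2(FPKM + 1) of each target gene (rows) in each library (columns) minus the mean of the 3 controls, so blue is lower and red higher. EFTUD2 replicate 3 holds the lowest values of TCF7 and SP5 (-0.78 each), and control replicate 1 that of NOTUM (-0.46).

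The order of the levels per length was much the same in both groups. In the controls it ran NOTUM, DKK1, SP5, NKD1, LGR5, RNF43, AXIN2, TCF7, ZNRF3 and LEF1. The first 4 and the last differed from their neighbors in all 3 libraries without overlap, whereas the neighbors LGR5 and RNF43, RNF43 and AXIN2, AXIN2 and TCF7, and TCF7 and ZNRF3 overlapped. In the EFTUD2 libraries AXIN2 (mean 29.9 FPKM) stood before RNF43 (26.9 FPKM) and LGR5 (24.8 FPKM), and ZNRF3 (19.9 FPKM) before TCF7 (18.8 FPKM), but the ranges of these neighbors overlapped there too. Among all genes tested, the control mean of NOTUM was at percentile 98.8, that of AXIN2 at 84.9 and that of LEF1 at 12.6.

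The other genes of the pathway were taken from a list of 79 genes in the table, of which 57 were tested. By limma, 0 of these passed at an adjusted p of 0.05, and 6 higher and 2 lower genes had an unadjusted p under 0.05, beside 4.4% and 7.9% of all genes. The groups did not overlap for 9 higher and 11 lower genes, beside 7.92% and 19.4% of all genes. Both counts of higher genes include WLS, WNT5A, TRABD2A and TLE2, which passed the filter on low values only through the EFTUD2 libraries. These counts are therefore not read as an excess over all genes. The median log2 fold change of the list was -0.02 beside -0.07 for all genes tested. CTNNB1 (Entrez gene 1499), the gene of β-catenin itself, stood at 145.2, 146.5 and 145.8 FPKM across the controls, against 146.0, 135.7 and 136.1 FPKM with EFTUD2. Its log2 fold change was -0.07 (SE 0.09, limma adjusted p = 0.73), and 0.07 with median of ratios scaling. TCF7L2 (Entrez gene 6934), the TCF factor of most epithelia, was at 8.75 ± 1.79 FPKM in control and 8.55 ± 1.26 FPKM in EFTUD2 cells (SD, n = 3 each; log2 fold change -0.02, turning to 0.11 with median of ratios scaling).

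All 9 genes of the destruction complex and its ubiquitin ligase had a log2 fold change below 0, with a median of -0.26, and 5 of them were lower in every EFTUD2 library, beside 62.7% of all genes below 0 and 19.4% lower without overlap. Among genes averaging 1 FPKM or more, as all 9 do, 68.3% were below 0 and 23.4% lower without overlap. With median of ratios scaling the median of the 9 was -0.14, and 7 of them were below 0, where 47% of all genes were. Under that scaling 2 lay apart from the controls, both lower, beside 11.1% of all genes. Without EFTUD2 replicate 3 the median was -0.14 as well. APC (Entrez gene 324), the scaffold lost in colon cancer, stood at 3.75, 4.06 and 3.64 FPKM across the controls, against 3.10, 3.44 and 1.42 FPKM with EFTUD2 (log2 fold change -0.45, SE 0.24, limma adjusted p = 0.44). BTRC (Entrez gene 8945), which recognizes phosphorylated β-catenin, stood at 8.03, 7.29 and 7.03 FPKM across the controls, against 6.16, 6.24 and 4.21 FPKM with EFTUD2 (log2 fold change -0.38, SE 0.17, limma adjusted p = 0.40). In both, EFTUD2 replicate 3 was the lowest library, and without it the values were -0.17 for APC and -0.23 for BTRC. AXIN1, the constitutive partner of AXIN2, had overlapping groups at 18.9 ± 1.45 and 17.9 ± 1.52 FPKM (SD, n = 3 each). Its log2 fold change of -0.08 turned to 0.06 with median of ratios scaling. The 3 Dishevelled genes, which relay the signal from Frizzled, had a median log2 fold change of -0.26 and 2 of them were lower in every EFTUD2 library, beside the same 19.4% of all genes. Their median was -0.12 with median of ratios scaling, where 1 lay apart, lower, beside 11.1% of all genes, and -0.13 without EFTUD2 replicate 3.

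Among the receptors, 12 of the 14 genes were tested, with a median log2 fold change of 0.02. With median of ratios scaling, 2 lay higher and 1 lower in every EFTUD2 library, beside 13.3% and 11.1% of all genes. With the values as deposited, 1 lay higher and 2 lower, beside 7.92% and 19.4% of all genes. The counts as deposited were thus close to the shares of all genes. The lower ones were the Frizzled receptors FZD3 (2.57 ± 0.27 and 1.95 ± 0.31 FPKM) and FZD6 (7.43 ± 0.53 and 5.87 ± 1.43 FPKM; SD, n = 3 each), chosen after their values were seen. FZD4 (Entrez gene 8322), a Frizzled receptor, stood at 16.5, 19.6 and 18.9 FPKM across the controls, against 26.2, 26.4 and 22.1 FPKM with EFTUD2. Every EFTUD2 library was higher (log2 fold change 0.42, SE 0.12, limma adjusted p = 0.40), and its adjusted p reached 0.012 when libraries were weighted by their spread (EFTUD2 replicate 3 received a weight of 0.121), within a range of 0.012 to 0.68 over all alternatives. The extracellular inhibitors KREMEN1 (Entrez gene 83999), a DKK receptor, and APCDD1 (Entrez gene 147495) also had groups that did not overlap. KREMEN1 stood at 18.2 ± 0.87 and 23.2 ± 3.96 FPKM, and APCDD1 at 2.76 ± 0.72 and 3.73 ± 0.24 FPKM (SD, n = 3 each), with adjusted p of 0.40 and 0.42 from limma. The log2 fold change of KREMEN1, 0.32, was 0.21 without EFTUD2 replicate 3, and that of APCDD1, 0.35, was 0.19 without control replicate 2. Of the 19 ligands 9 were tested and 3 had a control mean of at least 1 FPKM. WNT3 (Entrez gene 7473), a canonical ligand, stood at 1.56, 1.72 and 1.39 FPKM across the controls, against 1.23, 0.90 and 0.65 FPKM with EFTUD2 (log2 fold change -0.42, SE 0.14, limma adjusted p = 0.40, and -0.72 with a pseudocount of 0.1).

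**Figure D4:**
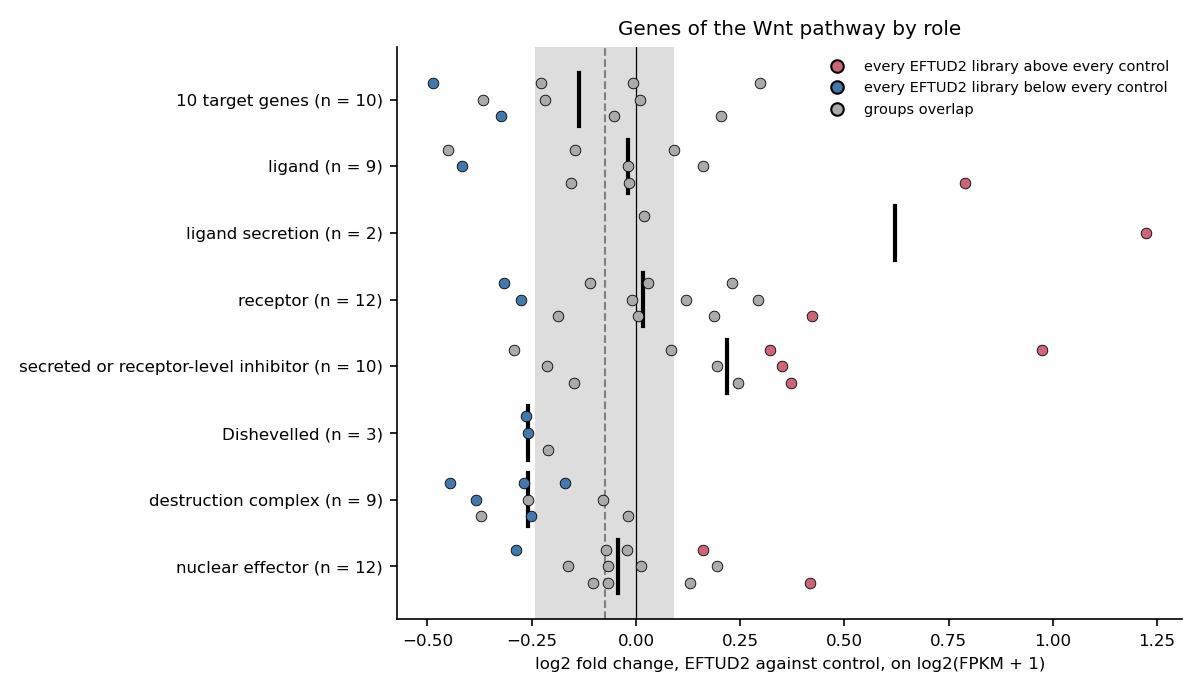
Each point is the log2 fold change of 1 gene on log2(FPKM + 1), by its role in the pathway, colored by whether the 3 EFTUD2 libraries lie above, below or among the 3 controls, with the median of each role as a bar and the middle 50% of all genes tested in grey. The destruction complex lies below 0 for all 9 genes, and WLS, in the row for ligand secretion, lies farthest to the right at 1.22.

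A few genes around the pathway were near 0 in every control and present in the EFTUD2 libraries, in very unequal amounts. In the list of 79 genes, those with a control mean of 0.1 FPKM or less and all EFTUD2 values above the controls were 4 (chosen after their values were seen). WLS, which carries Wnt ligands to the cell surface, did not exceed 0.02 FPKM in any control and measured 1.53, 3.64 and 0.13 FPKM across EFTUD2 replicates 1 to 3. WNT5A, a ligand known for noncanonical signaling, likewise did not exceed 0.02 FPKM in any control and measured 0.73, 1.79 and 0.10 FPKM. TRABD2A, a membrane protease that inactivates Wnt ligands, was at 0.04 FPKM in each control and at 1.17, 2.57 and 0.10 FPKM, and the corepressor TLE2 was at up to 0.07 FPKM and at 0.44, 0.71 and 0.13 FPKM. All 4 were thus highest in replicate 2 and lowest in replicate 3. Their fitted log2 fold changes depend on the pseudocount, and since the genes were chosen for this pattern and passed the filter on low values only through the EFTUD2 libraries, no test is given for them.

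In these 4 genes the level of replicate 1 was 0.408 to 0.62 times that of replicate 2, and the level of replicate 3 was 0.036 to 0.183 times that of replicate 2. A set of 6 genes that earlier results of these data had shown to be unequal between the EFTUD2 libraries, such as VIM at 23.2, 59.6 and 2.87 FPKM and KRT7 at 24.7, 61.2 and 0.78 FPKM in replicates 1 to 3, had ratios of 0.39 to 0.569 and of 0.013 to 0.08. The 10 β-catenin targets had ratios of 0.983 to 1.76 for replicate 1 and of 0.554 to 1.43 for replicate 3. These ratios describe the libraries only, since the other genes were chosen for being near 0 in the controls or for being unequal. The targets were not chosen in this way, and 9 of them stood at 19.9 FPKM or more in the controls. LEF1, the lowest of the 10, was highest in replicate 1 rather than in replicate 2.

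**Figure D5:**
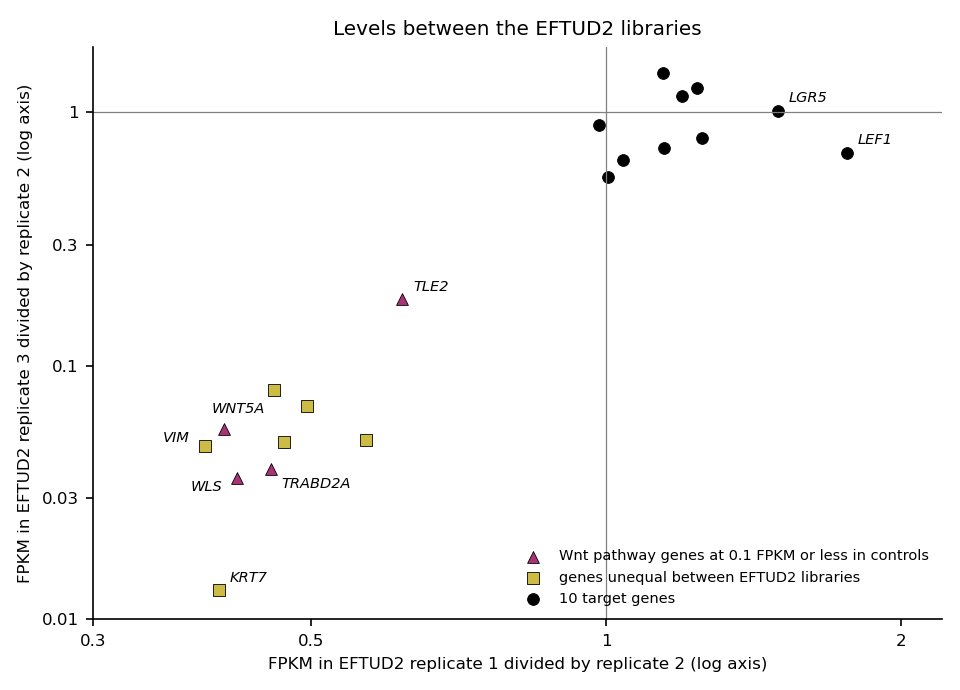
The level of each gene in EFTUD2 replicate 1 (x axis) and replicate 3 (y axis) is divided by its level in replicate 2, both on log axes. The 10 target genes (circles) sit between 0.983 and 1.76 on the x axis and between 0.554 and 1.43 on the y axis, to be read beside the genes chosen for being near 0 in the controls (triangles) and those chosen for being unequal (squares).

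Genes that β-catenin drives around the central vein of the normal liver were read from a further list of 15 genes, 14 of them tested. By limma, 0 passed at an adjusted p of 0.05, 1 had an unadjusted p under 0.05, beside 12.3% of all genes, and 1 had groups that did not overlap, beside 27.3% of all genes. GLUL (Entrez gene 2752), which encodes glutamine synthetase, the classic marker of that zone, stood at 95.1, 87.0 and 96.9 FPKM across the controls, against 97.2, 93.2 and 98.2 FPKM with EFTUD2 (log2 fold change 0.05, SE 0.10, limma adjusted p = 0.80, and 0.19 with median of ratios scaling). Its groups overlapped, with all values between 87.0 and 98.2 FPKM. SLC13A3 (Entrez gene 64849), a transporter of dicarboxylates, was the gene that separated, at 41.0, 27.6 and 45.7 FPKM across the controls, against 68.6, 51.5 and 103.0 FPKM with EFTUD2. SLC13A3 had a log2 fold change of 0.92 (SE 0.29, limma adjusted p = 0.40). The median of the list was 0.03.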

How the data were processed

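TRIzol-extracted, poly-A selected RNA of 6 libraries was read on a BGISEQ-500 instrument. The authors deposited 1 table of FPKM per gene and library, rounded to 2 decimals. The submitters' processing notes name HISAT2, Bowtie2, RSEM, DESeq2 and hg38, and versions, annotation and strand are not given in the sources used here. The depth is unknown, since FPKM holds no read numbers and low values had no common step between libraries (the commonest ratio to control replicate 1 covered at most 1.64% of genes). The table's sums of FPKM were 404342 to 434542 per library. Groups and replicate numbers came from the sample titles.

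Values were compared as log2(FPKM + 1) for the 17222 genes averaging 0.1 FPKM or more, using limma 3.58.1 (lmFit, eBayes with trend; R 4.3.3) and Benjamini-Hochberg adjustment over all genes at 0.05. Single ratios were compared by exact two-sided permutation. The fit was tested on simulated data. The genes and lists were chosen with earlier results of these data known. The text names all 10 targets, EFTUD2, CTNNB1, TCF7L2, AXIN1 and GLUL, and in each of 3 further lists the 3 highest and 3 lowest log2 fold changes among genes averaging 1 FPKM or more with groups that do not overlap. Other genes were chosen after their values were seen, and some results by gene are not reported here. Alternatives were other pseudocounts, filters and scalings, robust empirical Bayes, library weights, the replicate number as a block and each library left out. They were also applied, after the data were seen, to the further lists. Exon overlaps come from GENCODE release 29. Further steps used Python 3.11.15 with pandas 2.3.3 and matplotlib 3.10.9.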

Additional observations from a re-analysis of the deposited data

How the results depend on the processing

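None of the 10 target genes had an adjusted p under 0.05 from limma under any alternative tried. The count of all genes with an adjusted p under 0.05 was 0 except for 1355 with libraries weighted by their spread and 167 without EFTUD2 replicate 3, so it ranged from 0 to 167 over the fits that left out 1 library. With the weights, 7 genes of the pathway list and 4 of the other targets passed, while leaving out libraries gave 0 to 2 (WLS and TRABD2A) and 0 to 1 (CD44), genes that passed the filter on low values only through the EFTUD2 libraries. The number of target genes with an unadjusted p under 0.05, 2 as reported, was 0 with median of ratios scaling and 0 with quantile scaling, and 0 to 2 over the fits without 1 library. It was 3 with library weights (TCF7, LEF1 and RNF43), beside 27.5% of all genes. Without EFTUD2 replicate 3 the 2 genes were LEF1 and RNF43, beside 16.8% of all genes. The median log2 fold change of the 10 genes ranged from -0.29 (without EFTUD2 replicate 1) to 0.01 (without EFTUD2 replicate 3).

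Signs turned for genes near 0. With median of ratios scaling, the log2 fold changes were 0.13 for ZNRF3, 0.08 for AXIN2, 0.06 for AXIN1, 0.07 for CTNNB1, 0.11 for TCF7L2 and 0.08 for BIRC5. With quantile scaling they were 0.12 for ZNRF3, 0.07 for AXIN2, 0.05 for AXIN1 and 0.11 for TCF7L2, and with a common sum -0.03 for DKK1. With library weights they were 0.03 for SP5 and 0.13 for AXIN2. Leaving out libraries turned ZNRF3 (-0.14 to 0.11), DKK1 (-0.09 to 0.08), AXIN2 (-0.21 to 0.11), SP5 (-0.38 to 0.06) and TCF7L2 (-0.15 to 0.11). The cause was not tested. Deviations of same-numbered libraries correlated at -0.30, 0.35 and -0.09. Libraries with different numbers were not compared, so whether the replicate numbers pair the libraries cannot be told. With the replicate number as a block, 0 genes and 0 of the 10 targets were called and the median stayed at -0.14. Without read numbers, no limit from depth can be given for LEF1.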

Other observations

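Genes that β-catenin shares with other pathways as targets were read from a list of 21 genes, 13 of them tested, with a median log2 fold change of 0.02. MYC (Entrez gene 4609), a growth-promoting transcription factor, stood at 81.9, 83.5 and 83.2 FPKM across the controls, against 89.7, 83.5 and 86.7 FPKM with EFTUD2 (log2 fold change 0.06, SE 0.09, limma adjusted p = 0.73, and 0.20 with median of ratios scaling). The groups did not overlap, although EFTUD2 replicate 2, at 83.47 FPKM, lay only just above control replicate 2, at 83.45 FPKM. BIRC5, the gene of survivin, was at 62.3 ± 0.50 and 59.7 ± 1.90 FPKM (SD, n = 3 each; log2 fold change -0.06, and 0.08 with median of ratios scaling). FOSL1 (Entrez gene 8061), which encodes the AP-1 factor FRA1, stood at 15.2, 18.5 and 12.1 FPKM across the controls, against 7.43, 8.27 and 5.96 FPKM with EFTUD2. Its log2 fold change of -0.97 (SE 0.19, limma adjusted p = 0.27, range 0.022 to 0.68 over all alternatives) was below that of every one of the 10 targets above. TNFRSF19 (Entrez gene 55504), a receptor of the TNF family, was at 47.4, 49.7 and 48.2 FPKM and at 43.7, 34.3 and 37.0 FPKM (log2 fold change -0.34, SE 0.12, limma adjusted p = 0.40, and -0.20 with median of ratios scaling).

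CD44 and MMP7, an adhesion receptor and a matrix protease, were near 0 in the controls (at most 0.07 and 0.23 FPKM). In EFTUD2 replicates 1 to 3, CD44 stood at 3.73, 8.13 and 0.65 FPKM and MMP7 at 1.58, 6.74 and 0.29 FPKM. Both had their highest value in replicate 2 and their lowest in replicate 3. CD44 belongs to the 6 genes already known to be unequal between the EFTUD2 libraries, so its order is no separate observation. Both genes averaged 1 FPKM or more, as the rule for naming them asks, only through the EFTUD2 libraries.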
